A study of Homo sapiens with 24 samples.

Results

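The genes that make cholesterol and fatty acids, together with the machinery that switches them on, were followed in RCC4+VHL cells under hypoxia and activation of the aryl hydrocarbon receptor (AHR). The set comprised 34 genes named by symbol: 7 of sterol sensing and the SREBP transcription factors with their processing, 7 that lead from acetyl-CoA to farnesyl diphosphate, 11 that lead from there through squalene to cholesterol, 1 sterol carrier (STARD4) and 8 of fatty acid and glycerolipid synthesis. All 34 were among the 23106 gene symbols of the deposited counts, 33 under their current symbol and 1 (SC5D) under an older one, and all 34 passed the filter on low counts, which left 11735 genes. RCC4+VHL is a clonal renal carcinoma line in which the missing VHL tumour suppressor was restored by stable transfection of a VHL plasmid, so that HIF is again degraded in oxygen. The 24 libraries formed 4 groups of 6 independent replicates, treated for 6 h: at 21% oxygen with 0.1% DMSO as vehicle (normoxia + DMSO) or with 100 nM of the AHR ligand ITE (normoxia + ITE), and at 0.5% oxygen with the same vehicle (hypoxia + DMSO) or the same ligand (hypoxia + ITE). Cells of every group had been kept in medium with charcoal-stripped serum, which is depleted of steroid hormones and other lipophilic molecules, before treatment.

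SREBP transcription factors, encoded by SREBF1 and SREBF2, are made as precursors in the membrane of the endoplasmic reticulum. When sterols are scarce, the escort protein SCAP carries them to the Golgi, where the proteases encoded by MBTPS1 and MBTPS2 release the active part, which enters the nucleus and induces the genes of sterol and fatty acid synthesis. When sterols are plentiful, INSIG1 and INSIG2 hold SCAP back, and INSIG1 is itself a target of SREBP. INSIG2 is a known target of HIF, and sterol synthesis uses molecular oxygen at several steps, among them those of SQLE, CYP51A1, MSMO1 and SC5D. Desaturases such as SCD, FADS1 and FADS2 use it as well.

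Promoter sequences are shown for the genes on which the results turn. RefSeq windows (GRCh38.p14) from 250 bases before to 50 bases after an annotated start were found for 30 of the 34 genes, in 42 windows, and not for ACAT2, FDFT1, SQLE and FASN. Only the 250 bases before the start are printed, 5′ to 3′ on the strand of the gene. For the sensors INSIG1 and INSIG2, capitals mark ACGTG, the core of the HIF site, on either strand (the palindrome in INSIG1 matches on both).
INSIG1, chr7:155297628-155297877, + strand: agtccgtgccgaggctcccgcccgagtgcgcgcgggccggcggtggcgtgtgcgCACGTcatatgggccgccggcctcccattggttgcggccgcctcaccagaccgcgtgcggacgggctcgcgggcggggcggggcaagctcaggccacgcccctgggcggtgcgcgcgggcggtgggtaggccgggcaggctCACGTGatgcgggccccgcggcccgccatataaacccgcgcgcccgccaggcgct
INSIG2, chr2:118088221-118088470, + strand: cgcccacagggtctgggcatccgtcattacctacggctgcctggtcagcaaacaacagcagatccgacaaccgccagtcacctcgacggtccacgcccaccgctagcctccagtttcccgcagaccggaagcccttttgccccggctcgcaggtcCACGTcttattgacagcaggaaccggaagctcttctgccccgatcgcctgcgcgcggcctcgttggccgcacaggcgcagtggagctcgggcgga
For SREBF2, the single match among the members to TCACNCCAC, a sterol regulatory element searched on both strands, is in capitals.
SREBF2, chr22:41832855-41833104, + strand: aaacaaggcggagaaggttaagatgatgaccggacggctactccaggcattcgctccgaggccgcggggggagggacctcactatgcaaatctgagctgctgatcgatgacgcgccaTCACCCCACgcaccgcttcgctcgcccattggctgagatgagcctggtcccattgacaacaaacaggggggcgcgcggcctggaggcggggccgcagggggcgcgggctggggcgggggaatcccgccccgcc
HMGCS1, MVD and LSS are shown because they were among the enzymes called higher in replicate 5 in normoxia. They were thus picked by that result. Capitals mark CCAAT on either strand, the box bound by NF-Y, a partner of SREBP. Other members called higher, such as IDI1 and FDPS, also had CCAAT. So did TM7SF2, called lower in that contrast, and ACLY, ACACA and SCD, not called. A second window of HMGCS1 held 0 matches. Whether the box bears on the replicate 5 differences was not tested.
HMGCS1, chr5:43313413-43313662, - strand: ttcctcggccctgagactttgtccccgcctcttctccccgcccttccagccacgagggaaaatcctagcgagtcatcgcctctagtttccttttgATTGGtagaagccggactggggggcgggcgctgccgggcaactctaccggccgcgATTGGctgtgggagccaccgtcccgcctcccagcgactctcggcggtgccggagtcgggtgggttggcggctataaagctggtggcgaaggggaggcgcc
MVD, chr16:88663092-88663341, - strand: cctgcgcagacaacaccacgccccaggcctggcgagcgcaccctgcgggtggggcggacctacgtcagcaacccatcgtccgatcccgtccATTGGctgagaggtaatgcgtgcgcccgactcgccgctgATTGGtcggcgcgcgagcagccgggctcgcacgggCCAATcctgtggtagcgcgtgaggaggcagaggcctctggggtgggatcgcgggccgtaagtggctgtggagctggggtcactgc
LSS, chr21:46228775-46229024, - strand: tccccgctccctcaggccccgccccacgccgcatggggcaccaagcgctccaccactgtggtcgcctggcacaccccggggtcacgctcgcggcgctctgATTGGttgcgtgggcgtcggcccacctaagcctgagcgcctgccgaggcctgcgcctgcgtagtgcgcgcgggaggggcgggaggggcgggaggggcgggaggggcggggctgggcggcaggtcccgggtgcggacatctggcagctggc
Counted over whole windows, CCAAT was present in 20 of the 30 genes (66.7%) and in 39.7% of the 27305 genes in the promoter table. The ACGTG letters were present in 9 of 30 (30.0%) against 24.9% of all genes, and GCGTG, the core of the AHR site, in 25 of 30 (83.3%) against 40.6%. TCACNCCAC was present in 1 of 30 (3.33%) against 1.39%. With the 250 bases before the start alone, the CCAAT shares were 63.3% and 37.0%. These are matches of letters, and binding was not measured in these libraries. A gene counted if any of its windows matched. The comparison genes were not limited to those that passed the filter on low counts, as the members had. The shares therefore cannot show a trait particular to the members.

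Total counts ranged from 770094 to 93851342 per library, and 3 counts were worth between 0.0294 and 4.12 CPM (a gene's count relative to its library's total after TMM scaling), a floor that covers counting error only. NDRG1, a HIF target, was at 27.8 to 44.1 CPM in normoxia + DMSO and at 237 to 376 CPM in hypoxia + DMSO. CYP1B1, an AHR target, was at 49.1 to 70.6 CPM with DMSO in normoxia and at 242 to 391 CPM with ITE. VHL, whose reads include those of the transgene, was at 147 to 236 CPM in the other groups and at 164 to 701 CPM in hypoxia + ITE, highest in replicate 6. Of the markers listed for the kidney line, PAX8 (168 to 348 CPM), PAX2 (17.5 to 63.3 CPM), KRT8 (509 to 1451 CPM), KRT18 (397 to 1147 CPM), VIM (1672 to 2607 CPM) and CDH2 (155 to 282 CPM) were detected in 24 of 24 libraries. The 7 markers of other cell types summed to 5.19 to 46.7 CPM. Of these 7, PTPRC, PECAM1 and DCN were at 0 in 23 libraries each, ALB in 22 and CDH5 in 18. COL1A1 was at 0 in 1 library and reached 28.3 CPM, and CD68 was at 5.19 to 22.9 CPM in every library. Libraries differed in how far their genes lay from the mean of their group. The median distance over all genes was 0.63 on the log2 scale in hypoxia + ITE replicate 6, 0.36 in hypoxia + DMSO replicate 1, 0.32 in hypoxia + ITE replicate 1, 0.30 in hypoxia + DMSO replicate 2 and 0.29 in hypoxia + ITE replicate 3, against at most 0.22 in the other 19. For some calls and named differences the value without these libraries is given beside it, and values given alone can also depend on them. A change in level per cell and a change in the number of cells cannot be told apart in bulk RNA.

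In normoxia + DMSO the levels of the 34 genes, expressed per kilobase of the canonical transcript so that genes can be compared, spanned from 2.52 to 223 CPM per kb (medians of 6 libraries). FDPS (farnesyl diphosphate synthase) was highest, with 179 to 291 CPM per kb. FADS2, the delta-6 desaturase, followed with a median of 152, and then FDFT1 (squalene synthase) with 119, ACAT2 with 113, SCD with 113 and DHCR7 with 111 CPM per kb. The ranges of FDFT1, ACAT2, SCD and DHCR7 overlapped, so their order is not resolved, and the range of FADS2 overlapped those of FDFT1 and ACAT2. At the other end stood ELOVL6, a fatty acid elongase, at 2.52, STARD4 at 2.72 and MBTPS2 at 4.35 CPM per kb. INSIG1 stood at 52.5 and INSIG2 at 5.51 CPM per kb, and SREBF2 at 27.7 and SREBF1 at 14.3 CPM per kb. Within each of these pairs the 6 libraries of one gene did not overlap those of the other.

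INSIG2 was the member that moved most with oxygen. On GRCh37 the gene spans chr2:118846028-118868573 on the plus strand. Its level was between 17.4 and 21.9 CPM in normoxia + DMSO (median 19.6) and between 64.6 and 92.1 CPM in hypoxia + DMSO (median 78.4). With ITE present it was between 18.9 and 28.5 CPM in normoxia (median 20.4) and between 29.7 and 73.6 CPM in hypoxia (median 63.6). The hypoxia libraries all lay above the normoxia libraries at either treatment, and the lowest of them was hypoxia + ITE replicate 6. INSIG2 rose by 1.95 on the log2 scale under hypoxia with DMSO (SE 0.16, n = 6 per group, adjusted p = 1.39e-09, edgeR quasi-likelihood test) and by 1.44 under hypoxia with ITE (SE 0.16, adjusted p = 4.66e-07). Without hypoxia + ITE replicate 6 these values were 1.94 and 1.58. It was the single member called in each comparison, 1 of 34 against 1.3% of all genes called with DMSO and 2.35% with ITE. The promoter sequence printed for it held 1 match to ACGTG, beginning 95 bases before the start. That of INSIG1, which was not called, held 3. In the 250 bases before the start these letters were present in 21.7% of all genes. Whether the match bears on the rise of INSIG2 was not tested.

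INSIG1, the other INSIG gene and a target of SREBP, showed a smaller difference. On GRCh37 it lies at chr7:155089486-155101945 on the plus strand. Its level was 130 to 259 CPM in normoxia + DMSO (median 153), 170 to 300 CPM in normoxia + ITE (median 189), 208 to 321 CPM in hypoxia + DMSO (median 235) and 120 to 366 CPM in hypoxia + ITE (median 268). The highest library of each group was replicate 5, and the lowest of hypoxia + ITE was replicate 6. All 4 groups overlapped. The log2 fold change under hypoxia with DMSO was 0.55 (SE 0.20, 95% interval 0.15 to 0.95), with an adjusted p of 0.270 (edgeR). Under hypoxia with ITE it was 0.27 (adjusted p = 0.449), and 0.41 without hypoxia + ITE replicate 6 (adjusted p = 0.254). Of 21 alternatives, 3 called INSIG1 higher under hypoxia with DMSO and 1 with ITE. With DMSO these were sample quality weights and fits with the replicate number as a block. The blocked fits used only the compared groups or left out the 5 libraries far from their group. The call with ITE came from the last of these.

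**Figure D1:**
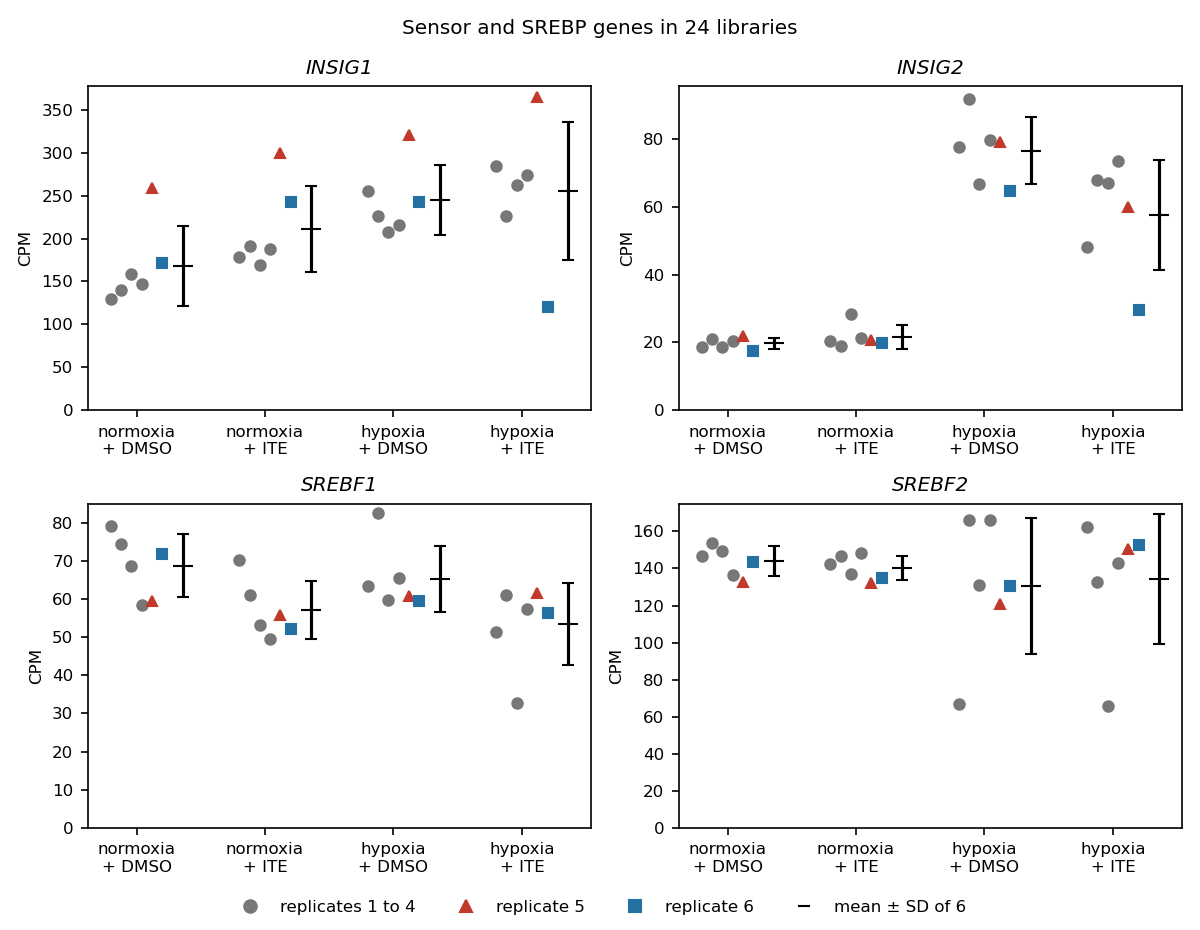
Level of INSIG1, INSIG2, SREBF1 and SREBF2 in CPM (y axis, from 0) in each of 24 libraries by group (x axis), with the mean ± SD of 6 libraries beside the points. INSIG2 was higher in every hypoxia library than in every normoxia library, INSIG1 was highest in replicate 5 (triangles) of each group, and SREBF2 was near 66 CPM in 1 library of each hypoxia group.

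The genes for the transcription factors and their processing showed no call with hypoxia. SREBF1 was at a median of 70.3 CPM in normoxia + DMSO (58.5 to 79.2) and 62.1 CPM in hypoxia + DMSO (59.4 to 82.5), a log2 fold change of -0.10 (SE 0.14). Its level was 49.6 to 70.3 CPM in normoxia + ITE (median 54.6) and 32.7 to 61.5 CPM in hypoxia + ITE (median 56.9). SREBF2 was at 133 to 154 CPM in normoxia + DMSO and at 132 to 149 CPM in normoxia + ITE. In hypoxia + DMSO it ranged from 66.6 to 166 CPM and in hypoxia + ITE from 65.7 to 163 CPM. The low values came from hypoxia + DMSO replicate 1 and hypoxia + ITE replicate 3, both among the 5 libraries far from their group, and the log2 fold change with DMSO was -0.15 (SE 0.17). SCAP, the sterol sensor, had medians of 57.5 and 61.7 CPM in normoxia and 58.2 and 60.1 CPM in hypoxia, with DMSO and with ITE respectively. Its full range over the 24 libraries was 42.5 to 69.3 CPM.

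Among the enzymes, hypoxia with DMSO gave 0 calls of 27 outside the sensor genes, and 17 of the 34 members had a positive log2 fold change and 17 a negative one (median 0.00 on the log2 scale). At an unadjusted p under 0.05 there were 3 members, INSIG2, INSIG1 and SCD, where 9.47% of all genes reached that level. SCD, which makes monounsaturated fatty acids, was at 566 to 627 CPM in normoxia + DMSO and at 512 to 968 CPM in hypoxia + DMSO (median 807). Of the hypoxia libraries, 5 lay above all 6 normoxia libraries and replicate 1 lay below them. The log2 fold change of SCD was 0.41 (SE 0.13, adjusted p = 0.169, edgeR). Without hypoxia + ITE replicate 6 it kept that size (0.41, adjusted p = 0.0214), without hypoxia + DMSO replicate 1 it was 0.51 (adjusted p = 0.0148), and without the 5 libraries far from their group 0.52 (adjusted p = 5.39e-06), a choice made after the values were seen. HMGCS1, the synthase that opens the mevalonate route, was at 176 to 231 CPM in normoxia + DMSO and at 126 to 192 CPM in hypoxia + DMSO, a log2 fold change of -0.27 (SE 0.14, adjusted p = 0.563). The oxygen-requiring CYP51A1 differed by 0.12 and FDPS by 0.14 on the log2 scale, while ACLY, which supplies cytosolic acetyl-CoA, differed by -0.15 and LSS, which closes the sterol rings, by -0.14, none of them past the threshold. Without the 5 libraries far from their group LSS was at 0.014.

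**Figure D2:**
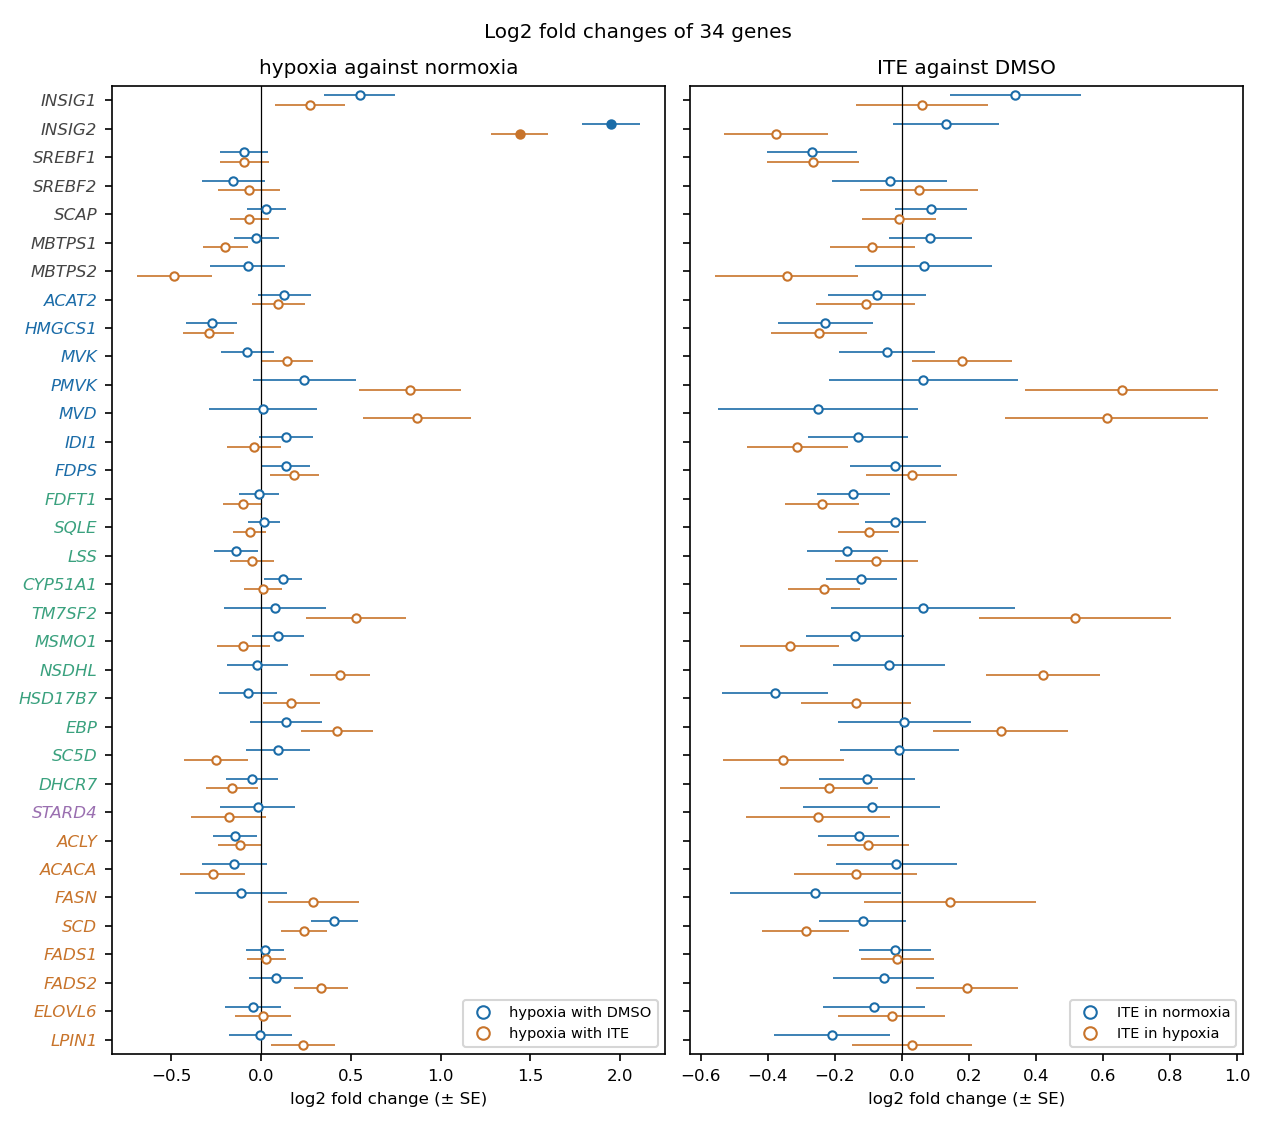
Log2 fold change ± SE (x axis) of each of 34 genes (y axis, coloured by role) for hypoxia against normoxia at left and ITE against DMSO at right, with filled points for an adjusted p under 0.05. INSIG2 under hypoxia is the single filled gene, at 1.95 with DMSO and 1.44 with ITE.

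ITE in normoxia, which asks whether AHR activation alone reaches these genes, gave 0 calls among the 34 members, where 0.0511% of all genes were called. At an unadjusted p under 0.05 there were 0 members in edgeR and 1 in DESeq2, which also called 0 after adjustment. With only the compared groups in the fit the edgeR count was 8, and 0 were called (0.261% of all genes). With sample quality weights it was 7, and SREBF1 was called lower (0.954% of all genes). The direction of the estimates was uneven: 26 of the 34 log2 fold changes were negative, with a median of -0.06 against 0.00 in all genes. By role, 6 of 7 in the mevalonate route, 9 of 11 from squalene to cholesterol and 8 of 8 in fatty acid and glycerolipid synthesis were negative, while 5 of the 7 sensor and processing genes were positive (median 0.09). INSIG1 was among the latter, at 0.34 (SE 0.20, 95% interval -0.06 to 0.74). SREBF1 was at -0.27 (SE 0.13), HMGCS1 at -0.23 (SE 0.14), FASN, the fatty acid synthase, at -0.26 (SE 0.25), LSS at -0.16 and FDFT1 at -0.14. HSD17B7, a reductase of late sterol synthesis, had the lowest estimate at -0.38 (unadjusted p = 0.0847, edgeR), from 14.2 to 17.7 CPM with DMSO and 10.7 to 16.2 CPM with ITE. INSIG2 differed by 0.13. These estimates share their libraries and are not independent of one another. They come from fits without a replicate term. With the replicate number as a block and only the compared groups, 5 members were called against 2.22% of all genes. INSIG1 was higher (adjusted p = 1.03e-04, edgeR), its 1 call in 17 alternatives. SREBF1, HMGCS1, MVD and FASN were lower.

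With both groups in hypoxia, ITE again gave 0 calls of 34, where 0.0597% of all genes were called. At an unadjusted p under 0.05 there were 8 members (23.5%) in edgeR and 10 in DESeq2, which called 0, against 9.56% of all genes in edgeR. The edgeR count was 1 without hypoxia + ITE replicate 6, 1 without the 5 libraries far from their group and 0 with only the compared groups in the fit. INSIG2 was among them at -0.38 (SE 0.16, adjusted p = 0.494, edgeR), or -0.23 without hypoxia + ITE replicate 6 and -0.12 without the 5 libraries. Of the other 7, 5 were negative: MSMO1 at -0.33, IDI1 at -0.31, SCD at -0.29, FDFT1 at -0.24 and CYP51A1 at -0.23. Without hypoxia + ITE replicate 6 these were at -0.21, -0.18, -0.19, -0.22 and -0.17. PMVK was at 0.66 and NSDHL at 0.42. Without that library PMVK was at 0.25 and NSDHL at 0.13, and without the 5 libraries at 0.05 and -0.01. INSIG1 differed by 0.06 and HMGCS1 by -0.25.

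The interaction, which asks whether ITE acts differently at low oxygen, was called for 0 of 34 members and for 0% of all genes in edgeR, and for 0 members in DESeq2 (2 at an unadjusted p under 0.05). In edgeR 1 member had an unadjusted p under 0.05, INSIG2, with an interaction of -0.51 on the log2 scale (SE 0.22, 95% interval -0.96 to -0.05, adjusted p = 0.915). INSIG2 was 0.13 higher with ITE in normoxia and 0.38 lower with ITE in hypoxia, and without hypoxia + ITE replicate 6 its interaction was -0.36. For INSIG1 it was -0.28 (SE 0.28).

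Cells given both stimuli were also compared with cells given neither. This comparison uses the hypoxia + ITE and normoxia + DMSO libraries of the comparisons above and is not independent of them. INSIG2 rose by 1.57 on the log2 scale (SE 0.16, adjusted p = 7.65e-08, edgeR). HMGCS1 fell by 0.52 (SE 0.14, adjusted p = 0.0476). The level of HMGCS1 was 176 to 231 CPM in normoxia + DMSO (median 192), 145 to 194 CPM in normoxia + ITE (median 168), 126 to 192 CPM in hypoxia + DMSO (median 161) and 76.8 to 178 CPM in hypoxia + ITE (median 136). The median thus went down with either stimulus and was lowest with both, and replicate 6 was the lowest library of hypoxia + ITE. Without that library the value was -0.41 (adjusted p = 0.0367). With only the compared groups in the fit it was -0.52 (adjusted p = 0.267) and was not called, and of 21 alternatives 10 kept the call. It was also lost without hypoxia + ITE replicate 3 (-0.52, adjusted p = 0.0777), without hypoxia + DMSO replicate 2 (-0.52, adjusted p = 0.0556), without the 5 libraries far from their group (-0.41, adjusted p = 0.0601), and when any replicate number other than 5 was left out of all groups. These 2 calls of 34 stood against 2.32% of all genes, and 10 members (29.4%) against 19.3% of all genes had an unadjusted p under 0.05. INSIG1 was at 0.61 (SE 0.20, adjusted p = 0.0944), and at 0.75 without hypoxia + ITE replicate 6 (adjusted p = 0.00761). PMVK was at 0.89 (adjusted p = 0.0863), and at 0.50 without that library. SREBF1 was at -0.36, FDFT1 at -0.25 and SCD at 0.12, none past the threshold. Without the 5 libraries 3 members were called against 3.32% of all genes: INSIG2 at 1.77, INSIG1 at 0.79 (adjusted p = 0.0163) and SCD at 0.27 (adjusted p = 0.0384), all higher.

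In replicate 6 of hypoxia + ITE the members lay apart by base composition. There, the 19 members with a transcript of at most 50% GC lay at a median of -0.44 on the log2 scale from their group mean, and the 15 members above 50% GC at 0.50. Across the 34 members the correlation of this distance with GC content was 0.77, and across 10624 genes with a canonical transcript it was 0.65, a description of 1 library in which the points share depth and preparation. MVD, with 65.5% GC, was at 409 CPM in this library and at 67.6 to 118 CPM in the other 5 of its group. SC5D, with 36.9% GC, was at 19.3 CPM, and MSMO1, with 37.4% GC, at 65.4 CPM, the lowest of their groups. INSIG1 (44.8% GC), INSIG2 (36.3%), HMGCS1 (39.0%), IDI1 (37.9%) and SCD (46.5%) were also lowest in this library, and TM7SF2, FASN, FADS2 and EBP highest. The split was not complete: DHCR7 (58.1% GC) and MBTPS1 (51.1%) were also lowest in this library, and NSDHL (49.6%) and FADS1 (49.3%) highest. The log2 fold changes under hypoxia with ITE depended on it: MVD was at 0.87 and 0.22 without it, PMVK at 0.83 and 0.43, NSDHL at 0.44 and 0.15, EBP at 0.42 and 0.11, FADS2 at 0.33 and 0.09, and MBTPS2 at -0.48 and -0.32. None of these passed the threshold with or without it, and what part GC content had in them was not tested. SCD was at 0.24 and 0.34 (and at 0.38, adjusted p = 0.00131, without the 5 libraries far from their group), and HMGCS1 at -0.29 and -0.18. The interaction of MVD was 0.86 with that library and 0.21 without it.

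**Figure D3:**
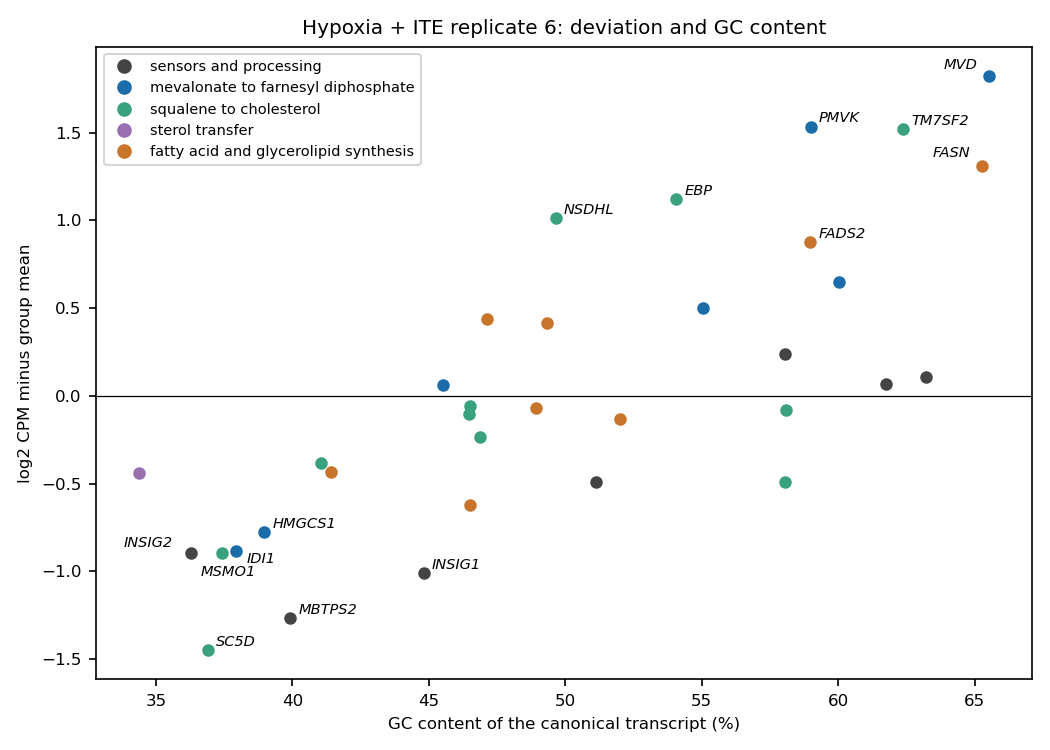
Distance of each of 34 genes from its group mean in hypoxia + ITE replicate 6 (y axis, log2 CPM) against the GC content of its canonical transcript (x axis, percent), coloured by role. Genes under 40% GC lie below 0 and MVD, at 65.5% GC, lies highest at 1.82.

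Several sterol genes had their highest values in replicate 5. Whether equal replicate numbers mark a shared culture or day is not given in the sources used here. INSIG1, the gene for which the pattern was first noticed, was at 259, 300, 321 and 366 CPM in replicate 5 of the 4 groups, and the next highest library of each group was at 172, 243, 256 and 284 CPM. It was 0.64 higher on the log2 scale in replicate 5 than in the mean of the other 5 numbers. This is a description, because the gene was chosen for it. The other members were chosen around INSIG1 with replicate 5 already named. Their calls and shares in replicate 5 are therefore not independent of that choice. The contrasts of the 6 replicate numbers were all fitted alike, with group means in the model. Of the other 33 members, replicate 5 gave 1 call, ACAT2 (3.03%), against 1.72% of all genes. Without hypoxia + ITE replicate 6 there were 5 (15.2%) against 3.94% of all genes, with HMGCS1, MVD and FDFT1 also higher and TM7SF2 lower. ACAT2, the acetoacetyl-CoA thiolase, was 0.42 higher (SE 0.11, adjusted p = 0.0453, edgeR), at 242 CPM in normoxia + DMSO, 212 in normoxia + ITE and 243 in hypoxia + DMSO, the highest library of each, and second in hypoxia + ITE. Replicates 1, 2, 3, 4 and 6 gave 0 calls among members, against 0.767%, 0.375%, 0%, 0% and 0.17% of all genes. In those contrasts 2, 1, 1, 0 and 7 members had an unadjusted p under 0.05 in edgeR, and DESeq2 called 0 in each. The 4 libraries of replicate 5 held 6898880 to 48357647 counts. Their members' distances from the group mean correlated with GC content at -0.13, -0.15 and -0.14 in both normoxia groups and hypoxia + DMSO and at -0.61 in hypoxia + ITE, whose mean includes replicate 6 (n = 34 genes each).

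Besides INSIG1, the highest library was replicate 5 in 4 of 4 groups for HMGCS1, SQLE (squalene epoxidase) and LSS, 3 of the other 33 members (9.09%) against 0.597% of all genes. It was so in 3 groups for a further 9: ACAT2, MVD, FDFT1, CYP51A1, MSMO1, NSDHL, DHCR7, STARD4 and ELOVL6. The 10 members for which replicate 5 was highest in no group were SREBF2, SCAP, MBTPS1, TM7SF2, ACLY, ACACA, FASN, SCD, FADS1 and FADS2. Over all 24 libraries, the 7 members of the mevalonate route were all positive in replicate 5 with a median log2 difference of 0.27, and 10 of 11 from squalene to cholesterol with a median of 0.21. The 6 sensor and processing genes other than INSIG1 had a median of -0.02 and those of fatty acid and glycerolipid synthesis of 0.05. STARD4 was 0.45, HMGCS1 0.34, DHCR7 0.32, LSS 0.30, FDFT1 0.27 and SQLE 0.15 above the mean of the other numbers, none past the threshold, while FASN and SCD each differed by 0.05. Of the members other than INSIG1, 25 of 33 were positive, with a median of 0.13 against -0.01 in all genes, and 11 (33.3%) had an unadjusted p under 0.05 against 9.05% of all genes.

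**Figure D4:**
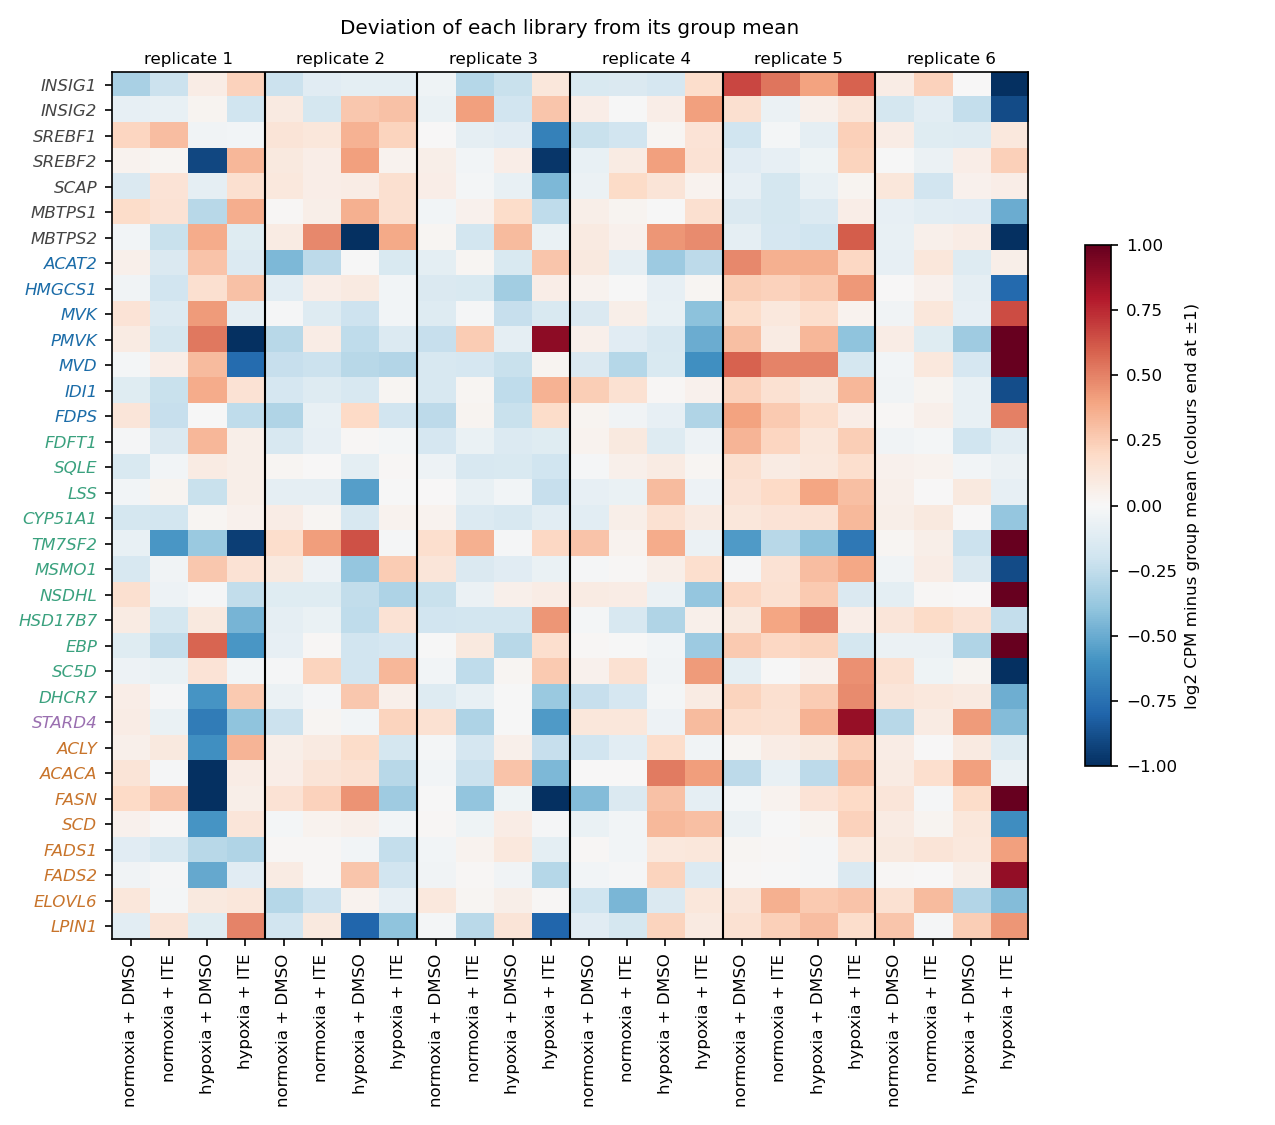
Log2 CPM minus the group mean (colour, ending at ±1) of 34 genes (rows, coloured by role) in 24 libraries (columns) sorted by replicate number. The enzymes from ACAT2 to DHCR7 are mostly red in the 4 replicate 5 columns, with TM7SF2 blue, and the last column, hypoxia + ITE replicate 6, holds the deepest colours of both signs.

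The contrast was also fitted within each oxygen level, on part of the same libraries. Each such fit holds 2 libraries of replicate 5, which may share a culture or day. Its p-values measure the spread between libraries and not that between independent cultures. With the 12 normoxia libraries alone 12 of the other 33 members (36.4%) were called in replicate 5 against 12.8% of all genes, and INSIG1 as well. Of the 12, 10 were higher (30.3%), against 6.4% of all genes called higher: ACAT2, HMGCS1, MVD, IDI1, FDPS, FDFT1, LSS, NSDHL, EBP and DHCR7. MVD, the decarboxylase of the mevalonate route, was 0.65 higher (adjusted p = 4.38e-08, edgeR), ACAT2 0.51, FDPS 0.40, FDFT1 0.34 (adjusted p = 3.13e-04), HMGCS1 0.29 (adjusted p = 0.00169), IDI1, the isomerase of isopentenyl diphosphate, 0.23, DHCR7, the last reductase of one branch of cholesterol synthesis, 0.23 and LSS 0.21 higher. The 2 lower members were the protease gene MBTPS1, at -0.19 (adjusted p = 0.0381), and TM7SF2, a sterol reductase, at -0.46 (adjusted p = 0.0140). TM7SF2 shares exon sequence with VPS51 on the same strand, so that the source of some of its reads is uncertain. With the 12 hypoxia libraries alone 0 of 34 were called, as were 0% of all genes (edgeR, 2 members, INSIG1 among them, and 161 genes at an unadjusted p under 0.05). Of the 33 differences other than that of INSIG1, 27 were positive, with a median of 0.15 against 0.01 in all genes. The log2 difference within hypoxia was 0.59 for INSIG1, 0.74 for STARD4, 0.35 for ACAT2, 0.42 for HMGCS1, 0.43 for DHCR7, 0.41 for LSS and 0.15 for MVD. Without the 5 hypoxia libraries far from their group, a choice made after the values were seen, 16 of the other 33 (48.5%) were called against 14% of all genes. The 14 that were higher also included SQLE, CYP51A1, MSMO1 and HSD17B7.

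**Figure D5:**
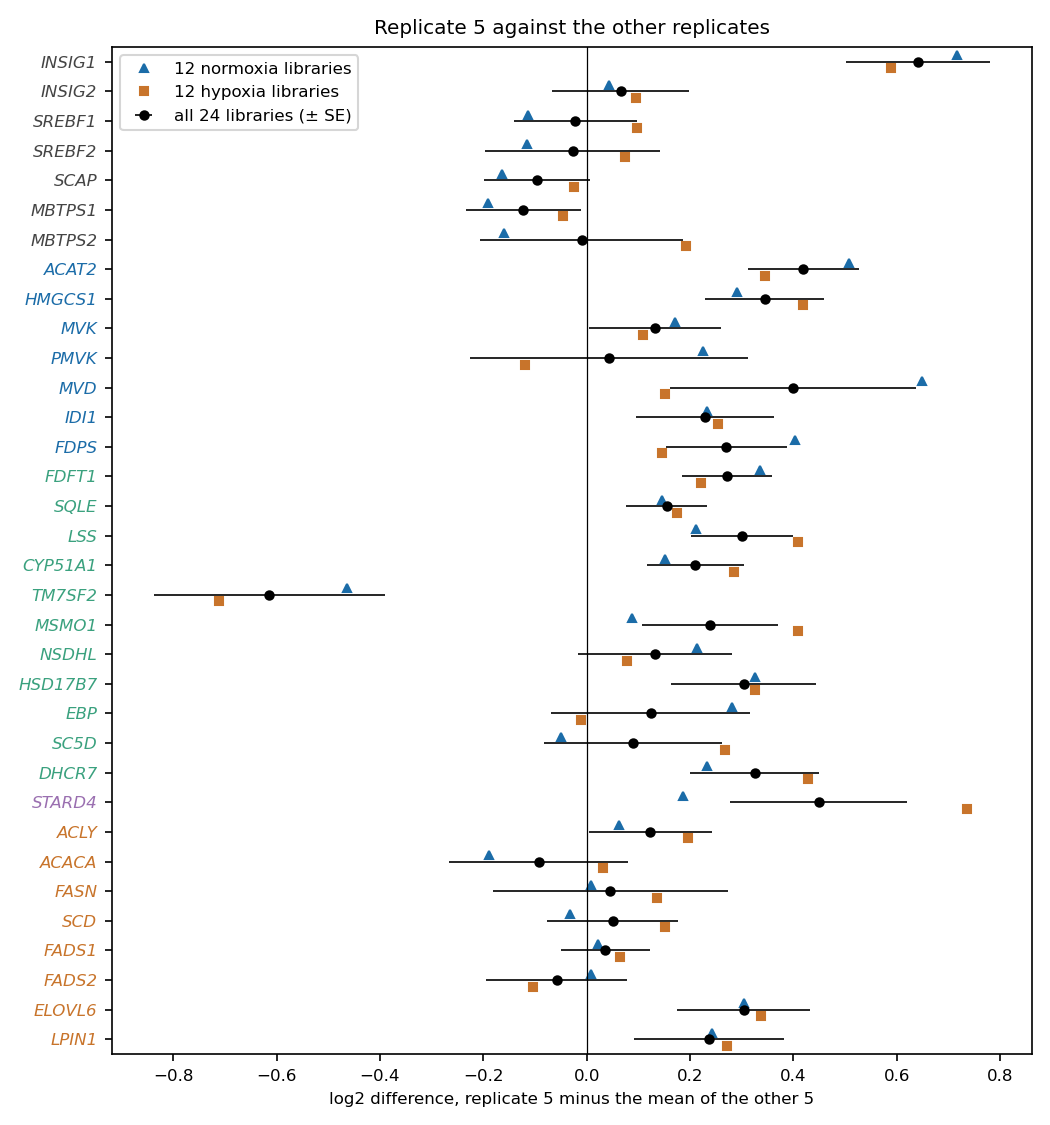
Log2 difference of replicate 5 from the mean of the other 5 replicate numbers (x axis) for each of 34 genes (y axis, coloured by role), in all 24 libraries (circles, ± SE), in the 12 normoxia libraries (triangles) and in the 12 hypoxia libraries (squares). Over all libraries INSIG1 stands farthest to the right at 0.64 and TM7SF2 farthest to the left at -0.61, and the mevalonate genes lie above 0 apart from PMVK in hypoxia.

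The genes whose library-to-library pattern was most like that of INSIG1 were ranked by Pearson correlation of log2 CPM deviations from the group mean over 24 libraries. The first 5 were MTHFD2 (0.89), HMGCS1 (0.89), UAP1 (0.89), DUSP14 (0.88) and TARS (0.87). Among the first 100 genes were 3 of the other 33 members, HMGCS1, CYP51A1 and IDI1 (9.09%, against 0.852% of all genes). Without hypoxia + ITE replicate 6 there were 6: HMGCS1, ACAT2, FDFT1, MVD, SQLE and CYP51A1 (18.2%). The libraries share their replicate numbers and their depth, so the correlations are a description. The deviations of INSIG1 include its high values in replicate 5, for which the gene was chosen. These shares are therefore not separate from the replicate 5 pattern.

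Genes of neighbouring pathways were read from the same fit. These were lists of SREBP partners and INSIG turnover, targets of the liver X receptor, oxysterol enzymes, sterol traffic and storage, the isoprenoid branch, fatty acid activation and supply, and glycerolipid synthesis. They held 12, 5, 2, 9, 8, 16 and 7 tested genes. In none of these lists was a gene called under hypoxia with either treatment, with ITE in normoxia or in the interaction. Of all genes, 1.3% and 2.35% were called under hypoxia with DMSO and with ITE, 0.0511% with ITE in normoxia and 0% in the interaction. The single gene called was CYP27A1, the sterol 27-hydroxylase. Of the 5 oxysterol enzymes listed, it and 1 other passed the filter. CYP27A1 was called with ITE in hypoxia (0.0597% of all genes) and with both stimuli against neither (2.32%). It was at 6.36 to 12.1 CPM in normoxia + DMSO (median 9.34), 14.1 to 22.3 CPM in normoxia + ITE (median 21.0), 4.76 to 16.9 CPM in hypoxia + DMSO (median 8.96) and 12.8 to 35.5 CPM in hypoxia + ITE (median 25.5). Its libraries with ITE lay above those with DMSO in normoxia and overlapped them in hypoxia. On the log2 scale CYP27A1 rose by 1.40 with ITE in hypoxia (SE 0.28, adjusted p = 0.0434, edgeR) and by 1.40 with both stimuli against neither (SE 0.26, adjusted p = 0.00159). In normoxia its log2 fold change was 1.10 (SE 0.26, adjusted p = 0.173). Without hypoxia + ITE replicate 6 the value in hypoxia was 1.28 (adjusted p = 0.0849). With only the compared groups in the fit it was 1.39 in hypoxia (adjusted p = 0.965) and 1.09 in normoxia (adjusted p = 0.00132).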

How the data were processed

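RNA from 24 cultures of RCC4+VHL cells was sequenced as polyA-selected, strand-specific paired-end libraries. The authors trimmed reads with Trim Galore 0.3.3, aligned them to GRCh37 with HISAT2 (given as 2.05), dropped fragments without a unique position with Picard 2.0.1 and counted reads per UCSC-defined gene with HTSeq 0.5.4p3 (intersection-strict), and deposited raw counts per gene and library; the strand setting of the counting is not given in the sources used here. No 2 libraries were identical. From these counts, genes were kept by filterByExpr (minimum count 10), scaled by TMM and fitted with edgeR 4.0.16 in R 4.3.3 (quasi-likelihood test, limma 3.58.1), 1 mean per group over all 24 libraries, with Benjamini-Hochberg adjustment over 11735 genes and a threshold of 0.05. Each replicate number was compared with the mean of the other 5 in a fit with group and replicate terms. Log2 CPM used a prior count of 2. Adjusted p-values are edgeR's unless DESeq2 (1.42.0) is named. The fit was tested on simulated counts, in which no library was made to lie far from its group. That test does not cover the libraries far from their group in these data.

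The members and lists were chosen with earlier results of these data known, and INSIG1 and replicate 5 were named in that choice. Values were to be given in full for INSIG1, INSIG2, SREBF1, SREBF2, SCAP and the members past the threshold; the other members given in full were picked after their values were seen. Alternatives were DESeq2, no filter, other scaling, only the compared groups, the replicate number as a block, sample quality weights and leaving out libraries. Gene coordinates are GRCh37 (GENCODE annotation) and promoters GRCh38.p14 (RefSeq). Exons of 16 members overlap a gene on the opposite strand and those of 5 a gene on the same strand, and HSD17B7 and FDPS have pseudogene copies, so that the source of some of their reads is uncertain, and reads shared with a copy may have been dropped. Of the kidney marker list, 1 gene is not reported here.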

Additional observations from a re-analysis of the deposited data

Results flagged for a closer look

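Of 136 sets of 6 values (34 genes in 4 groups), 21 (15.4%) held a highest or lowest library whose gap to its neighbour was above Dixon's 95% limit as a share of the range, where chance gives about 1 in 20. Genes share libraries, so the sets are not independent. By group, 11 lay in hypoxia + ITE, 5 in normoxia + DMSO, 3 in normoxia + ITE and 2 in hypoxia + DMSO.

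Replicate 6 of hypoxia + ITE gave 8 of them. It was the highest library for MVD (409 CPM), MVK (48.3 CPM), TM7SF2 (90.5 CPM), NSDHL (243 CPM), EBP (231 CPM), FASN (653 CPM) and FADS2 (1008 CPM) and the lowest for IDI1 (77.7 CPM). Replicate 3 of the same group was lowest for SREBF1 (32.7 CPM), SREBF2 (65.7 CPM) and SCAP (42.5 CPM).

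Replicate 5 was highest in normoxia + DMSO for INSIG1 (259 CPM), MVD (139 CPM), FDFT1 (311 CPM) and EBP (102 CPM), and in normoxia + ITE for LSS (104 CPM). The other 5 came from different libraries. INSIG2 was highest in normoxia + ITE replicate 3 (28.5 CPM), MBTPS2 in normoxia + ITE replicate 2 (28.1 CPM) and SREBF1 in hypoxia + DMSO replicate 2 (82.5 CPM). ACLY was lowest in normoxia + DMSO replicate 4 (216 CPM) and in hypoxia + DMSO replicate 1 (145 CPM).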

How the results depend on the processing

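Of 175 recomputed counts of members called, 142 stayed within 1.5 times their main count and 33 did not. Of 1133 recomputed fold changes of single genes, 1042 kept their direction and side of the threshold, 62 passed the threshold newly, 23 lost it and 6 changed sign. Where no cause is named below, the cause was not tested.

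Shares of all genes called follow in parentheses. Under hypoxia with DMSO (1 member called, 1.3%) the count was 4 with sample quality weights (7.16%), 2 without the 5 libraries far from their group (4.31%), 4 without those 5 and with a replicate block (7.14%), and 1 to 2 when single libraries or replicate numbers were left out. Under hypoxia with ITE (1 called, 2.35%) it was 2 (5.16%), 2 (2.91%) and 4 (4.7%) in the first 3 of these settings. Each count of 4 under hypoxia held INSIG1, INSIG2 and SCD higher and HMGCS1 lower. For ITE in normoxia (0 called) it was 1 with sample quality weights (0.954%, SREBF1 lower). For both stimuli against neither (2 called) it was 4 with DESeq2 (5.51%), 1 with no filter on low counts (1.43%), 1 with only the groups compared (0.726%), 5 without the 5 libraries and with a replicate block (5.41%), and 1 to 3 with single libraries or numbers left out. For replicate 5 (2 called, each count of 1 or more including INSIG1, for which the contrast was chosen) it was 4 with DESeq2 (3.47%), 1 with no filter (1.03%, ACAT2 no longer called), 13 in normoxia alone (12.8%), 0 in hypoxia alone (0%), 17 without the 5 libraries (14%), and 2 to 6 with single libraries left out. For replicate 1 (0 called) it was 4 in normoxia alone (6.28%), 1 without the 5 libraries (3.12%) and 0 to 2 with single libraries left out. In normoxia alone it was 2 for replicate 2 (5.62%) and 3 for replicate 4 (3.6%), with 0 called in the fit over all libraries. The settings in normoxia or hypoxia alone and those that leave out libraries use fewer libraries and test other numbers of genes.

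Equal replicate numbers were not taken as pairs: samples of one number in different treatments had correlations of their deviations of 0.24 on average in normoxia and 0.02 in hypoxia, over 0.1 for 5 and 2 of 6 pairs, and 5 and 2 of 6 samples correlated best with their own number. With a replicate block the counts were 1 for hypoxia with DMSO (1.48%) and with ITE (2.22%). They were 0 for ITE in normoxia (0.111%) and in hypoxia (0.0682%). For both stimuli the count was 3 (2.25%, INSIG1, INSIG2 and HMGCS1), and for the interaction 0 (0%). With the block and only the groups compared they were 2 for hypoxia with DMSO (2.25%), 5 for ITE in normoxia (2.22%, INSIG1 higher, and SREBF1, HMGCS1, MVD and FASN lower) and 1 for both stimuli (0.479%).

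The log2 fold changes that changed sign were LSS under hypoxia with DMSO (0.014 without the 5 libraries), EBP under hypoxia with ITE (-0.025 without them and with the block), NSDHL with ITE in hypoxia (-0.0097 without them, -0.031 with the block added) and SCD in replicate 5 (-0.032 in normoxia alone, -0.026 without the 5 libraries). None of these was called.

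Depth limits the shallowest library, hypoxia + DMSO replicate 2, in which 3 counts are worth 4.12 CPM. The lowest members in that library were MBTPS2 with 6 counts (8.25 CPM) and STARD4 with 8 counts (11.0 CPM).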

Other observations

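Most members were lower in replicate 3 than in the mean of the other numbers. That mean includes replicate 5, so high values in replicate 5 shift this contrast, and that of replicate 1, downward. The 2 contrasts are therefore not separate from that of replicate 5. Over the 24 libraries 28 of the 34 members were negative in replicate 3, with a median log2 difference of -0.11 against -0.00 in all genes, and 0 were called (edgeR, 1 member at an unadjusted p under 0.05, and 0 called by DESeq2). FASN was at -0.45 (SE 0.24) and INSIG1 at -0.14 (SE 0.15) in that contrast. In replicate 1 the members numbered 23 negative of 34, with a median of -0.06 against 0.00 in all genes.

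Replicate 5 held the highest library of its group for 15 of the 33 members other than INSIG1 in normoxia + DMSO (45.5%, against 23.3% of all genes), 17 in normoxia + ITE (51.5% against 14.4%), 10 in hypoxia + DMSO (30.3% against 8.02%) and 12 in hypoxia + ITE (36.4% against 10.9%). It held the lowest for 6, 2, 1 and 0 members of those groups.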
